A study of Homo sapiens with 6 samples.

Results

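The genes described here are 31 members of the p53 pathway: inhibitors of p53 and direct p53 target genes, chosen by symbol from textbook knowledge, with earlier results of these data known. They are 31 of the 34811 genes in the count table, and all 31 were among the 17309 genes with enough reads to be tested. RNA-seq was done on OVCAR-3 derivatives, a human line of high-grade ovarian carcinoma, and the study asked how lowering COX-1, the prostaglandin synthase encoded by PTGS1, changes gene expression. OV3/SCR cells carry a scrambled shRNA in the pRS HuSH-29 plasmid and are labelled wild-type for COX-1, and OV3/COX1KD cells carry a pRS plasmid with an shRNA against COX-1. Each condition is 1 puromycin-selected stable clone grown in RPMI-1640 with fetal bovine serum, with no agent added for the comparison, and its 3 libraries are separate passages of that clone. A difference between the conditions can therefore come from the knockdown or from the clone, and these cannot be told apart. The p-values measure the spread between passages only.

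p53 is a transcription factor that cells accumulate after DNA damage and other stress. It binds a paired DNA element near its target genes and raises transcripts for cell cycle arrest, apoptosis, DNA repair and metabolic adjustment, and its target MDM2 marks it for degradation, which closes a feedback loop.

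The libraries held between 25291505 and 27391538 counts. PTGS1, the targeted gene, was counted 713, 658 and 641 times in OV3/SCR and 456, 486 and 501 times in OV3/COX1KD, a log2 fold change of -0.45. OV3/COX1KD replicate 2 stood somewhat apart. Its counts differed from those of the other OV3/COX1KD libraries with chi-squares per degree of freedom of 4.92 and 6.40, against 1.82 to 3.16 for the other pairs within a condition. Summed ovarian and epithelial markers (PAX8, WT1, MUC16, EPCAM, KRT8, KRT18) were at 3446 to 3483 CPM (TMM-scaled CPM, read counts relative to library size) in OV3/SCR and 4760 to 4922 CPM in OV3/COX1KD. All 6 of those markers differed, and PAX8 was the lower one, with a log2 fold change of -0.76. Summed fibroblast and leukocyte markers were at 11.6 to 12.1 CPM and 6.61 to 7.47 CPM, with none at 0 counts. COL1A1 made up most of that sum and was the only one of the 3 tested markers of this list to pass, with a log2 fold change of -0.77. The part of these differences in the results was not tested, and fewer cells of a type and less RNA per cell cannot be told apart in bulk RNA.

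In OV3/COX1KD, 15 of the 31 p53 pathway genes were up-regulated and 7 were down-regulated at an FDR under 0.01, and 9 did not pass. Transcripts of TP53I11, CDKN1A, FDXR, RRM2B, CES2, RPS27L, PERP, PHLDA3, BBC3, MDM2 and STEAP3 rose by more than 0.5 on the log2 scale. PLK2, BTG2, MDM4 and GADD45A fell by more than that. The members therefore moved in both directions, and members of one feedback loop, MDM2 and MDM4, moved apart. FDR values are Benjamini-Hochberg adjusted p-values of the edgeR quasi-likelihood test over all 17309 genes, and each log2 fold change is OV3/COX1KD over OV3/SCR.

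These shares have to be read against a large background of change. Over all tested genes, 47.9% passed at either sign, 25.8% as higher and 22.1% as lower, against 71.0% of the members in all, 48.4% as higher and 22.6% as lower. Among the 12734 tested genes at or above the mean level of the least abundant member, 58.3% passed, and the members are to be read against that share as well. Rises beyond 0.5 on the log2 scale were seen in 9.87% of tested genes and in 11 members (35.5%), and falls beyond it in 10.0% of tested genes and in 4 members (12.9%). No member passed a fold change of 2.5, the limit in the study's methods for changed genes, which 3.92% of tested genes passed. For single genes the study's figures used the lower limit of 0.5 on the log2 scale, and it reported CDKN1A as up-regulated. The CPM values of the conditions did not overlap for 27 members (87.1%), 18 above and 9 below the control, against 63.2% of all tested genes and 70.9% of those at or above the lowest member level. At that level 32.8% passed as higher and 25.5% as lower, and 11.1% rose and 9.14% fell beyond 0.5. The members' 22.6% lower was thus near both background shares, 22.1% and 25.5%. The median log2 fold change of the members was 0.206, with a range from -0.982 to 1.131, and that of all tested genes was -0.009. The plot of changes by role shows each member with its standard error.

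**Figure D1:**
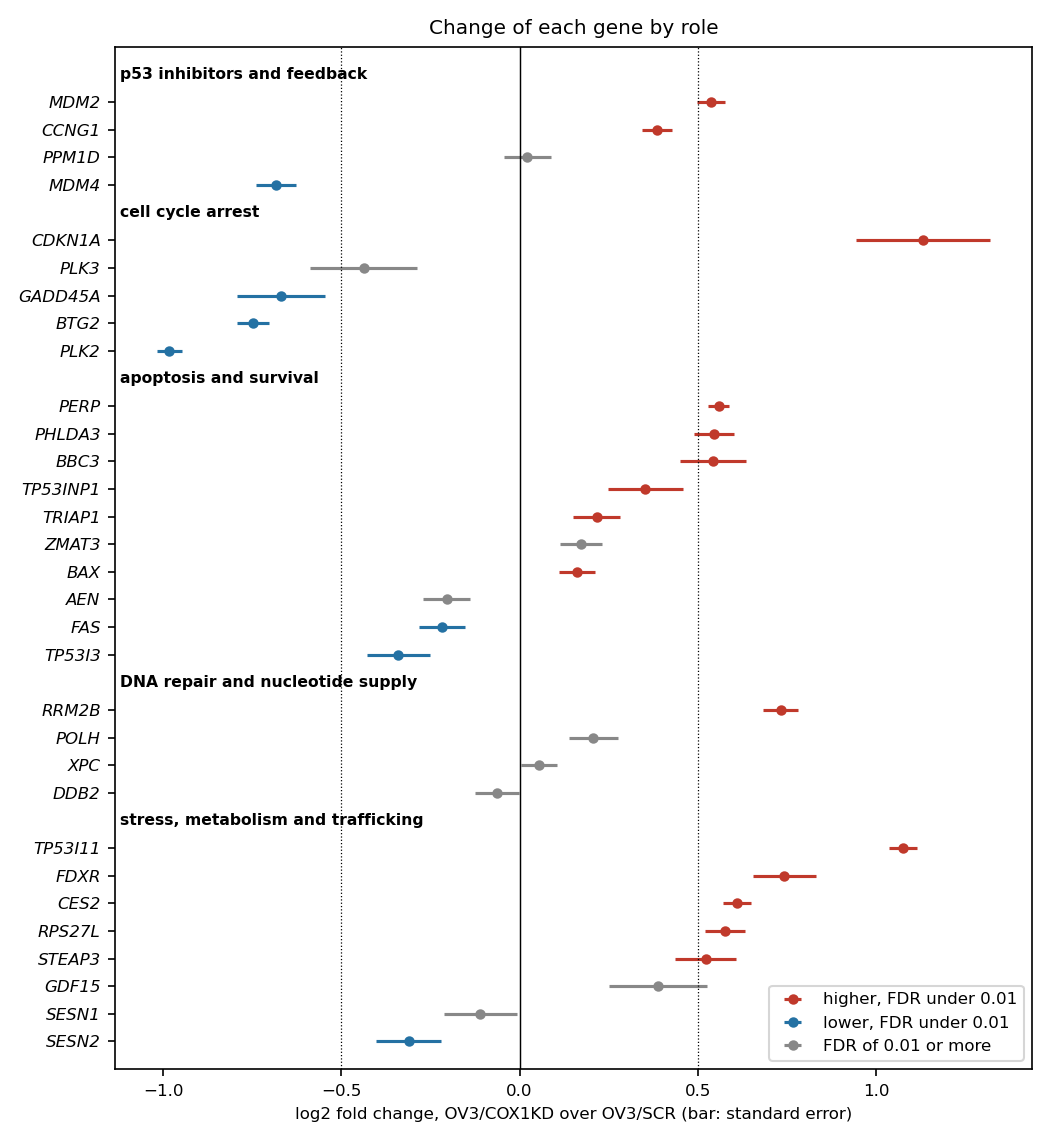
Log2 fold change (OV3/COX1KD over OV3/SCR, x axis) with its standard error (bar) for each of the 31 members, grouped by role and coloured by call, with dotted lines at 0.5 and -0.5. TP53I11 and CDKN1A lie farthest to the right, at 1.08 and 1.13, and PLK2 farthest to the left, at -0.98.

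**Figure D2:**
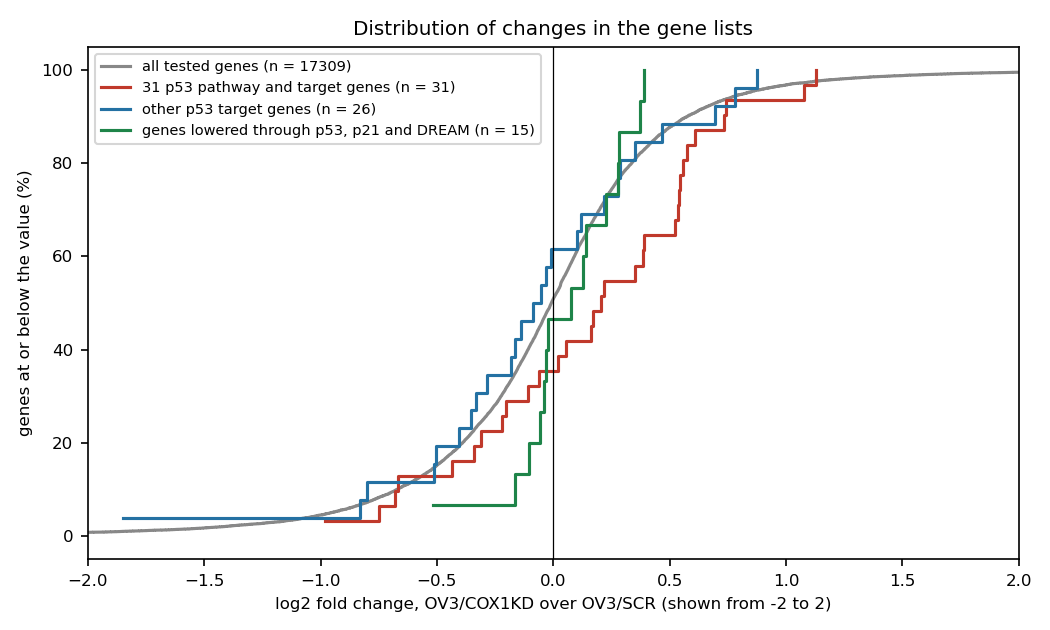
Cumulative share of genes (y axis, percent) at or below each log2 fold change (x axis, shown from -2 to 2) for the 31 members, 26 other p53 target genes, 15 genes lowered through p53, p21 and DREAM, and all tested genes. The members' curve lies to the right of the others over much of its upper part, with a median of 0.206 against -0.071 and 0.076 for the other lists.

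A p53 response element is made of 2 copies of a 10-base half-site, which can be next to each other or slightly apart. The p53 half-site consensus was searched on both strands within 2500 bases of each gene's transcription start, with a spacer of at most 1 base, both core motifs intact and at most 2 other mismatches. Matches were found at 11 of the 31 members (35.5%), against 703 of 16573 tested genes (4.24%). The members were chosen as textbook p53 targets, so this share says nothing about the libraries. Matches with at most 1 mismatch were present at 6 members (19.4%) against 135 genes in all (0.815%), and matches with 0 mismatches at 3 members, PLK2, ZMAT3 and DDB2, against 18 genes in all (0.109%). A match was present at 3 of the 15 up-regulated members, at 4 of the 7 down-regulated members and at 4 of the 9 that did not pass. The sequences below are the best match at each of 10 of these members, shown because the 3 call classes all contain such elements. Each is read in the direction of the gene's transcription from GRCh37, with the half-sites in capitals (for DDB2 also the 1 base between them) and 4 flanking bases on each side in lower case. A match is a description of these letters and no evidence of binding.
CDKN1A: tcagGAACATGTCCCAACATGTTGagct
CCNG1: gtgaGCACAAGCCCAGGCTAGTCCgagg
PLK2: tgagAAACATGCCTGGACTTGCCCtgca
BTG2: ggtcACGCATGTTCAGGCATGCATggaa
GADD45A: tacaGAACATGTCTAAGCATGCTGggga
FAS: tcctGGACAAGCCCTGACAAGCCAagcc
DDB2: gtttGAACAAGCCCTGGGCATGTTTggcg
ZMAT3: cataAAACAAGTCCAGACATGCCTaggc
AEN: agccGGGCTTGCCCGGGCATGTGGgagc
GDF15: ttgcCATCTTGCCCAGACTTGTCTcgaa

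The first pair of sequences belongs to members that rose. The CDKN1A match lies upstream at chr6:36644226-36644245, plus strand, 2255 bases before the start of the canonical transcript, with 2 mismatches. The CCNG1 match lies in an intron at chr5:162864932-162864951, plus strand, 341 bases after the start, with 1 mismatch. The next 4 sequences belong to members that fell. The PLK2 match, with 0 mismatches, lies upstream at chr5:57758101-57758120, minus strand, 2198 bases before the start. That of BTG2 lies upstream at chr1:203272770-203272789, plus strand, and that of GADD45A in an intron at chr1:68152458-68152477, plus strand. The intronic match of FAS is at chr10:90751066-90751085, plus strand. The last 4 belong to members that did not pass the test. The DDB2 match overlaps a UTR exon at chr11:47236530-47236550, plus strand, and is the only one printed with a base between its half-sites. That of ZMAT3 is intronic at chr3:178787976-178787995, minus strand, that of AEN is at chr15:89164537-89164556, plus strand, 24 bases before the start, and that of GDF15 is at chr19:18496118-18496137, plus strand. No match was found at the other 20 members, among them MDM2 and BAX, which says only that these letters are not in this window.

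**Figure D3:**
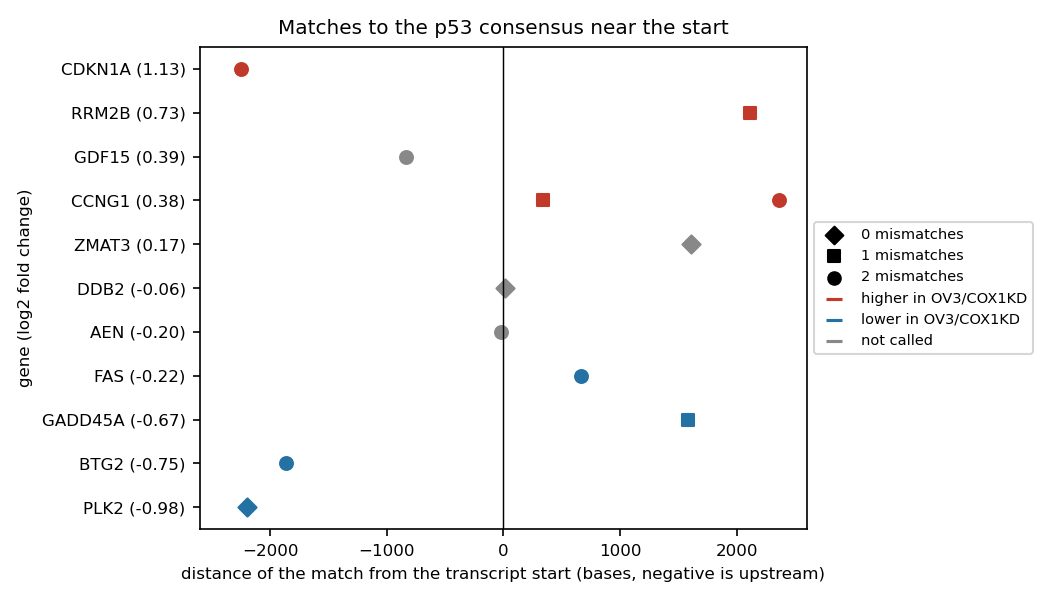
Distance in bases from the transcription start (x axis) of each consensus match at the members, with the number of mismatches given by the marker's shape and the call by its colour. The PLK2, ZMAT3 and DDB2 matches have 0 mismatches, and the matches lie on both sides of the start.

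Among the inhibitors and feedback regulators of p53, MDM2 and CCNG1 rose, MDM4 fell and PPM1D did not pass. MDM2 (ENSG00000135679, chromosome 12 from 69201957 to 69239324, plus strand) encodes the ubiquitin ligase that marks p53 for degradation. It was counted 1692, 1804 and 1762 times in OV3/SCR and 2427, 2398 and 2646 times in OV3/COX1KD. Every OV3/COX1KD library lay above every control, and the log2 fold change was 0.54 (SE 0.039, FDR 4.24e-10). MDM4 (ENSG00000198625, chromosome 1 from 204485507 to 204527248, plus strand) encodes the related protein that binds p53 and blocks its transactivation. Its counts were 2024, 2108 and 2045 in OV3/SCR and 1187, 1384 and 1192 in OV3/COX1KD. All 3 knockdown libraries were below the controls, with a log2 fold change of -0.68 (SE 0.056, FDR 2.76e-09). The number of MDM2 counts per MDM4 count, in which library size cancels, was 0.836, 0.856 and 0.862 in OV3/SCR and 2.04, 1.73 and 2.22 in OV3/COX1KD. The lowest knockdown ratio was that of replicate 2, and it too lay above every control.

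CCNG1, cyclin G1, which recruits a phosphatase to MDM2, rose from 45.9 ± 0.603 to 59.9 ± 2.48 CPM (SD, n = 3 libraries in each condition), a log2 fold change of 0.38 (FDR 1.72e-07). PPM1D encodes the phosphatase WIP1, which switches off p53 and its kinases. It was at 13.7 ± 0.187 CPM in OV3/SCR and 13.9 ± 0.308 CPM in OV3/COX1KD, with overlapping libraries and a log2 fold change of 0.02 (FDR 0.79). Of the 4 inhibitors, PPM1D alone had libraries that overlapped between conditions.

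**Figure D4:**
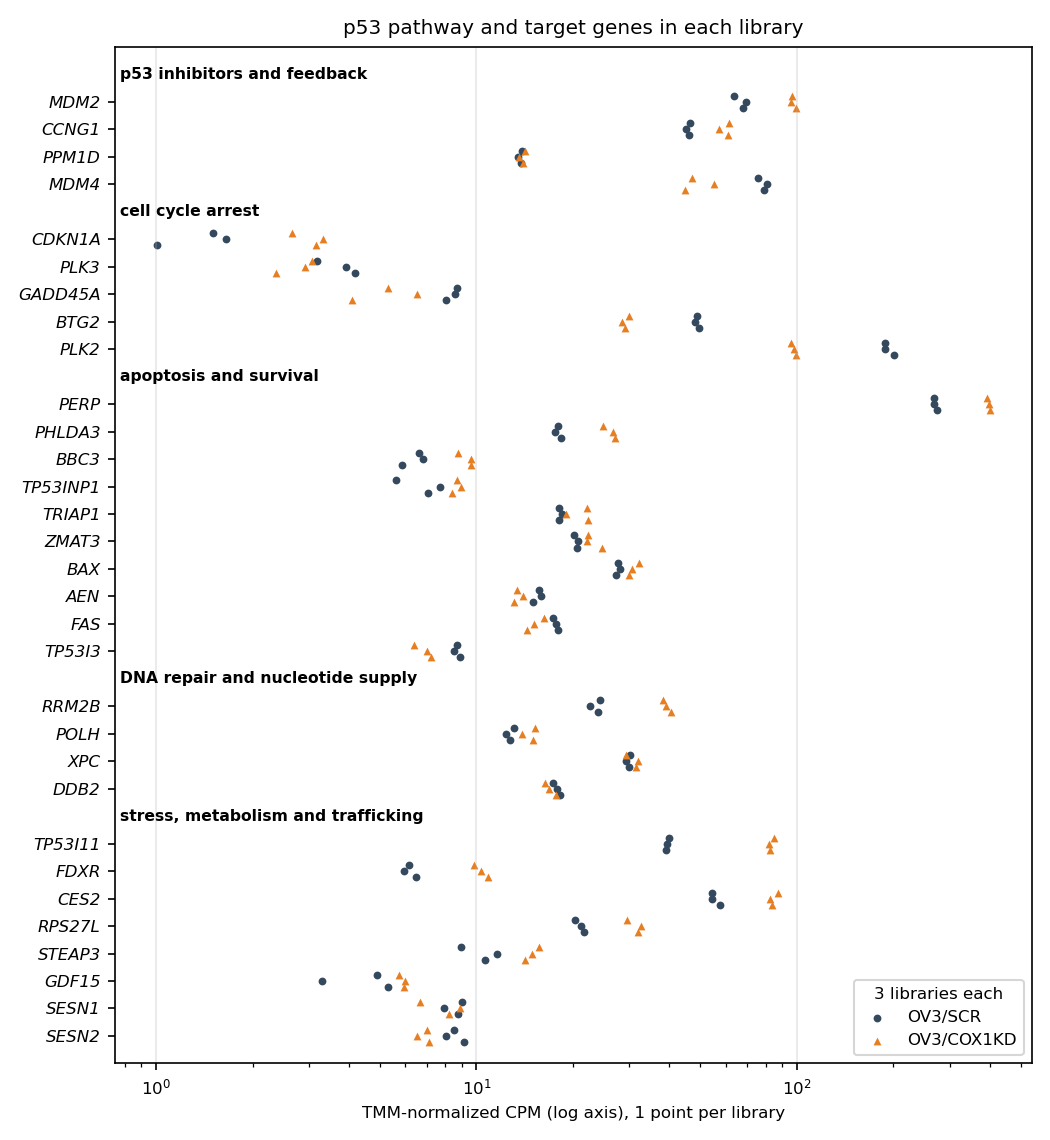
Level of each member (x axis, TMM-scaled CPM on a log axis) in the 6 libraries, 1 point for each of 3 OV3/SCR (circles) and 3 OV3/COX1KD (triangles) libraries. MDM2 rises and MDM4 falls in all 3 OV3/COX1KD libraries, and CDKN1A lies lowest in OV3/SCR.

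Of the 5 cell cycle arrest genes, CDKN1A rose, BTG2, GADD45A and PLK2 fell, and PLK3 did not pass. At or above the lowest member level, 32.8% of tested genes passed as higher and 25.5% as lower. CDKN1A (ENSG00000124762, chromosome 6 from 36644237 to 36655114, plus strand) encodes p21, the inhibitor of cyclin-dependent kinases that carries much of the p53 arrest. It was barely expressed, with 40, 43 and 26 counts in OV3/SCR and 67, 83 and 84 in OV3/COX1KD. The groups did not overlap, and the mean level was 1.39 ± 0.337 against 3.04 ± 0.339 CPM (SD). Its log2 fold change of 1.13 (SE 0.189, FDR 3.75e-05) was the highest among the members and also had the largest standard error of the 31.

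PLK2 (ENSG00000145632, chromosome 5 from 57749809 to 57755966, minus strand), a polo-like kinase induced early in stress, showed the deepest fall. Its counts were 5030, 4929 and 5205 in OV3/SCR and 2411, 2457 and 2644 in OV3/COX1KD, so that 50.6% of the control level was left. The log2 fold change was -0.98 (SE 0.035, FDR 8.35e-15). BTG2 (ENSG00000159388, chromosome 1 from 203274619 to 203278730, plus strand), an antiproliferative regulator of transcription and mRNA decay, was counted 1304, 1258 and 1279 times in OV3/SCR and 753, 711 and 773 times in OV3/COX1KD. These groups were far apart relative to their spread, with a log2 fold change of -0.75 (SE 0.045, FDR 2.43e-11).

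GADD45A (ENSG00000116717, chromosome 1 from 68150884 to 68154017, plus strand), a small stress protein that binds PCNA and p21, had 231, 223 and 207 counts in OV3/SCR and 133, 164 and 109 in OV3/COX1KD. The knockdown libraries were spread widely, with replicate 2 the highest, but none reached the controls, and the log2 fold change was -0.67 (SE 0.124, FDR 1.16e-04). PLK3, a second polo-like kinase of the stress response, was counted 85, 102 and 108 times in OV3/SCR and 77, 73 and 63 times in OV3/COX1KD. Its log2 fold change of -0.44 did not pass (FDR 0.0174). The median log2 fold change of the 5 arrest genes was -0.67.

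Of the 10 genes of apoptosis and survival, 6 rose, 2 fell and 2 did not pass. All 10 had groups that did not overlap in CPM. Among tested genes at or above the lowest member level, 58.3% passed and 70.9% did not overlap. Only PERP, PHLDA3 and BBC3 rose beyond 0.5 on the log2 scale, and no gene of the group fell beyond it. PERP (ENSG00000112378, chromosome 6 from 138409642 to 138428556, minus strand), a membrane protein of desmosomes that also promotes cell death, was counted 7130, 6975 and 7103 times in OV3/SCR and 9845, 10005 and 10712 times in OV3/COX1KD. Replicates lay close together in each condition, and the log2 fold change was 0.56 (SE 0.029, FDR 2.28e-12). PHLDA3 (ENSG00000174307, chromosome 1 from 201433406 to 201438365, minus strand), a lipid-binding protein that restrains AKT, had 478, 459 and 474 counts in OV3/SCR and 625, 671 and 719 in OV3/COX1KD. The groups were clearly separate, at a log2 fold change of 0.55 (SE 0.057, FDR 9.33e-08). BBC3 (ENSG00000105327, chromosome 19 from 47724079 to 47736023, minus strand) encodes PUMA, a BH3-only protein that frees BAX to act. Its counts were 176, 177 and 151 in OV3/SCR and 220, 241 and 257 in OV3/COX1KD, all higher in the knockdown, with a log2 fold change of 0.54 (SE 0.093, FDR 4.89e-05).

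BAX (ENSG00000087088, chromosome 19 from 49458072 to 49465055, plus strand), the pore-forming effector of the mitochondrial pathway, changed little. It had 736, 733 and 704 counts in OV3/SCR and 809, 769 and 798 in OV3/COX1KD, and its log2 fold change of 0.16 (SE 0.050, FDR 0.00962) was at the edge of the threshold. With the replicate number as a block the FDR of BAX was 0.012. TP53INP1, which takes part in autophagy and in activating p53, had a log2 fold change of 0.35 (FDR 0.00753), and TRIAP1, an inhibitor of the apoptosome, one of 0.22 (FDR 0.00837). FAS, the death receptor, had a log2 fold change of -0.22 (FDR 0.00685), and TP53I3, a quinone oxidoreductase linked to oxidative stress, one of -0.34 (FDR 0.00273). AEN, an apoptosis nuclease, and ZMAT3, an RNA-binding zinc finger protein, did not pass, at -0.20 (FDR 0.0119) and 0.17 (FDR 0.0168). The death receptor FAS and the BH3-only gene BBC3 thus had opposite signs, and the effector BAX lay between them.

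Among the genes for DNA repair and nucleotide supply, RRM2B rose and the 3 repair genes did not pass. RRM2B (ENSG00000048392, chromosome 8 from 103216730 to 103251189, minus strand) encodes p53R2, the ribonucleotide reductase subunit that supplies deoxynucleotides outside S phase. Its counts were 648, 590 and 619 in OV3/SCR and 959, 979 and 1080 in OV3/COX1KD, a log2 fold change of 0.73 (SE 0.050, FDR 2.11e-10). Every knockdown library exceeded the controls by a wide margin. DDB2 and XPC, which recognise damage for nucleotide excision repair, had log2 fold changes of -0.06 (FDR 0.394) and 0.05 (FDR 0.376), with overlapping libraries. POLH, the translesion polymerase eta, stood at 0.21 (FDR 0.0148).

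The 8 genes of stress response, metabolism and trafficking had the highest median log2 fold change of the role groups, 0.549. Of these, 5 were up, 1 was down and 2 did not pass. Among tested genes at or above the lowest member level, 32.8% passed as higher and 25.5% as lower. TP53I11 (ENSG00000175274, chromosome 11 from 44907454 to 44972857, minus strand), named as a p53-induced protein, was counted 1065, 1023 and 1013 times in OV3/SCR and 2141, 2053 and 2199 times in OV3/COX1KD. The groups were tight and far apart, with a log2 fold change of 1.08 (SE 0.039, FDR 1.12e-14). FDXR (ENSG00000161513, chromosome 17 from 72858619 to 72869156, minus strand), the ferredoxin reductase of mitochondrial electron transfer, had 164, 155 and 167 counts against 247, 259 and 290, a log2 fold change of 0.74 (SE 0.088, FDR 5.17e-07). CES2 (ENSG00000172831, chromosome 16 from 66968347 to 66978999, plus strand), a carboxylesterase that also activates the prodrug irinotecan, had 1448, 1416 and 1489 counts against 2203, 2074 and 2223. Both enzymes were higher in every knockdown library, CES2 with a log2 fold change of 0.61 (SE 0.039, FDR 8.25e-11).

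RPS27L (ENSG00000185088, chromosome 15 from 63418071 to 63450220, minus strand), a ribosomal protein paralog that binds MDM2, was counted 543, 551 and 560 times in OV3/SCR and 745, 820 and 849 times in OV3/COX1KD. Its log2 fold change was 0.58 (SE 0.055, FDR 2.76e-08). Its value is uncertain as far as reads may be shared with the close paralog RPS27. STEAP3 (ENSG00000115107, chromosome 2 from 119981407 to 120023228, plus strand), an endosomal ferrireductase that also acts in vesicle secretion, had 238, 303 and 274 counts in OV3/SCR and 394, 373 and 378 in OV3/COX1KD. The controls varied more than the knockdown libraries, and the log2 fold change was 0.52 (SE 0.086, FDR 3.13e-05).

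GDF15 (ENSG00000130513, chromosome 19 from 18485541 to 18499986, plus strand), a secreted cytokine of the TGF-beta family and a common readout of stress, did not pass. It was counted 130, 86 and 137 times in OV3/SCR and 144, 150 and 158 times in OV3/COX1KD, and its log2 fold change was 0.39 (SE 0.137, FDR 0.0203). The low count in OV3/SCR replicate 2 made the control spread wide, and the groups did not overlap. SESN1 and SESN2 encode sestrins, which restrain mTORC1 under stress. SESN2 had a log2 fold change of -0.31 (FDR 0.00658), and SESN1, whose libraries overlapped, one of -0.11 (FDR 0.372).

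Several calls sat near the threshold of 0.01 and changed when 1 library was left out. The call of BAX was lost without any 1 of the OV3/SCR libraries or without OV3/COX1KD replicate 1 (FDR 0.018 to 0.0551). FAS lost its call without any 1 OV3/SCR library or without OV3/COX1KD replicate 2 or 3 (FDR 0.0113 to 0.0442), and TRIAP1 without any 1 OV3/SCR library or without OV3/COX1KD replicate 1 or 3 (FDR 0.0221 to 0.0507). SESN2 lost it without OV3/SCR replicate 1 or 3 or any 1 OV3/COX1KD library (FDR 0.0118 to 0.047). For TP53INP1 this happened on leaving out replicate 1 or 3 of either condition (FDR 0.0118 to 0.0643), and TP53I3 lost its call without replicate 1 of either condition or without OV3/SCR replicate 3 (FDR 0.0114 to 0.0192). In the other direction, leaving out OV3/COX1KD replicate 2 let AEN (FDR 0.0082), GDF15 (FDR 0.0088), PLK3 (FDR 0.00956), POLH (FDR 0.00322) and ZMAT3 (FDR 0.00424) pass. GDF15 also passed without OV3/SCR replicate 3 (FDR 0.00803), while without OV3/SCR replicate 2, the lowest control, its log2 fold change was 0.21 (FDR 0.137). The log2 fold change of TP53INP1 was 0.23 without OV3/SCR replicate 1. PLK3 also passed without OV3/SCR replicate 1 (FDR 0.0084). Without OV3/COX1KD replicate 2 the members counted 18 up and 7 down, and calls over all genes also increased, to 8989 of 17859 from 8293 of 17309. Leaving out any other 1 library lowered the calls over all genes, to between 7124 and 7401. Losses of a call by members are to be read beside that general decrease. The 15 members beyond 0.5 on the log2 scale and CCNG1 kept their calls under all 12 alternatives.

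Library scaling set how many rises exceeded 0.5. The TMM factors were 1.02 to 1.04 in OV3/SCR and 0.970 to 0.977 in OV3/COX1KD. Scaling by total count put the median of all tested genes at -0.0865, and 5 members rather than 11 then rose beyond 0.5, with MDM2, BBC3, PERP, PHLDA3, STEAP3 and RPS27L at or below it. Under that scaling 12 members were higher and 9 lower. Over all genes, 8444 of 17309 passed with it, against 8293 with TMM.

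Per kilobase of annotated exon, PERP had the highest level of the members, 64.3 ± 0.99 CPM per kilobase in OV3/SCR and 94.7 ± 1.35 in OV3/COX1KD (SD). PLK2 followed, at 41.5 ± 1.54 in OV3/SCR. BTG2 came next at 17.7 ± 0.218 in OV3/SCR and 10.6 ± 0.282 in OV3/COX1KD, and CCNG1 was at 14.8 ± 0.195 and 19.4 ± 0.801. In OV3/COX1KD BTG2 thus lay below CCNG1, and also below CES2, TRIAP1, BAX, MDM2 and TP53I11. CDKN1A was lowest of the 31 in OV3/SCR, at 0.462 ± 0.113 CPM per kilobase, below PLK3 at 1.13 ± 0.154 and SESN1 at 1.18 ± 0.0809. In OV3/COX1KD it was at 1.02 ± 0.113, and PLK3 was lowest at 0.835 ± 0.11. In OV3/SCR, 9 of the 30 neighbouring pairs in this order lay closer than the larger of their SDs, among them RRM2B at 4.38 ± 0.163 and GADD45A at 4.37 ± 0.183. Exon length here counts all annotated exons of a gene together, so the order depends on annotation, with RPS27L set at 8825 bases. By this measure the best-known arrest target was among the scarcest transcripts of the set, while the kinase PLK2 was among the most abundant.

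The genes around each member were used as a measure of regional change. Tested genes within 2 Mb with a mean of at least 2 CPM numbered 3 to 87 for each member. TP53INP1 had 22 such neighbours with a median log2 fold change of 0.33, of which 15 passed as higher and 0 as lower, close to its own 0.35. RRM2B, on the same chromosome 8, had 18 neighbours with a median of 0.26, with 13 higher and 3 lower, against its own 0.73. The 3 neighbours of CCNG1 had a median of 0.30, against its own 0.38. SESN1, on chromosome 6, had 23 neighbours with a median of 0.215, with 14 higher and 3 lower, against its own -0.11. Those of MDM4 had a median of 0.14, opposite to its fall, and those of PLK2 and MDM2 medians of -0.04 and -0.001. Of the 15 members beyond 0.5, 12 stayed beyond it after their neighbours' median was subtracted, and RRM2B (0.47), STEAP3 (0.41) and RPS27L (0.47) did not. Copy number was not measured here, and the part of regional change in these values was not tested.

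**Figure D5:**
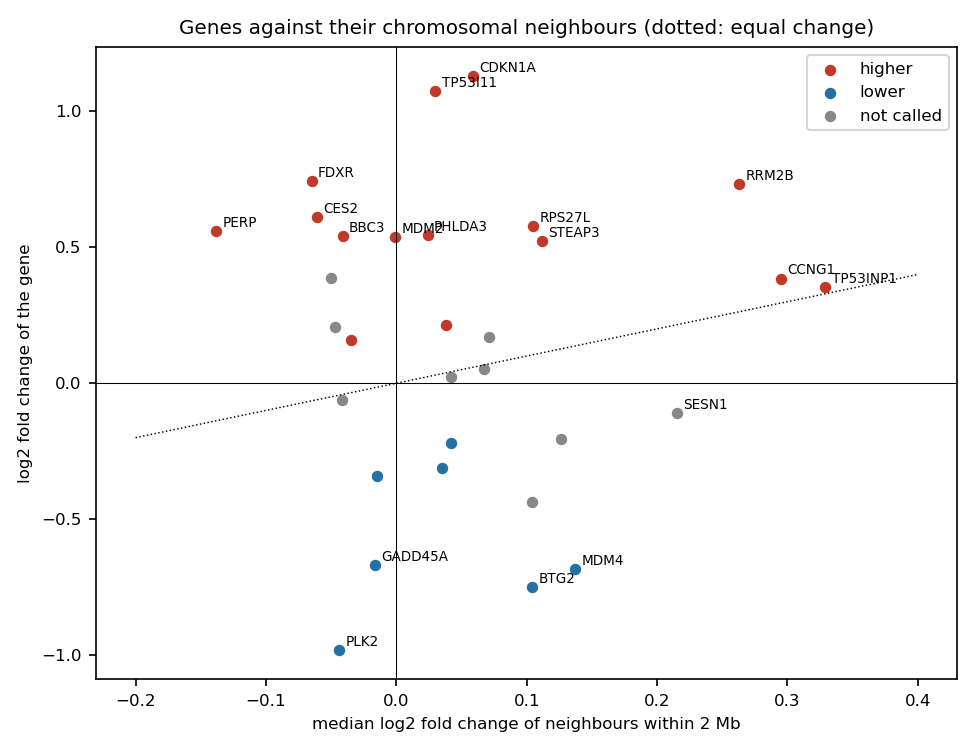
Log2 fold change of each member (y axis) against the median log2 fold change of the tested genes within 2 Mb of it (x axis), 1 point for each member coloured by its call, with a dotted line of equal change. TP53INP1, CCNG1, RRM2B and SESN1 lie farthest to the right, with neighbour medians of 0.33, 0.30, 0.26 and 0.215. PLK2 and TP53I11 lie near 0 on the x axis and far from 0 on the y axis.

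Annotated exons of 12 members overlap another gene, and the strand setting of the counting is not given in the sources used here. The overlap was at least 10% of exon length for XPC (24.6%), PHLDA3 (18.4%), STEAP3 (11.0%) and FAS (10.7%). The genes overlapping XPC had at most 14 counts in any library, the partner of STEAP3, STEAP3-AS1, had at most 6, that of FAS, ACTA2, at most 51, and the gene overlapping PHLDA3 at most 42. All of these partner counts were far below the counts of the member itself. For 4 members with smaller overlaps the partner, on the opposite strand, was about as abundant as the member or more so. These were MDM2 with CPM (1.6% of exon length, up to 29644 counts), TP53INP1 with NDUFAF6 (3.99%, up to 607), POLH with GTPBP2 (3.12%, up to 1433) and TP53I3 with AC008073.6 (3.46%, up to 215). Reads of such a pair in the shared stretch cannot be told apart without strand.

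Upstream of these targets, 18 of 19 p53 family members, activating kinases and cofactors were tested. Of these, 7 passed (38.9%), and the median log2 fold change of the list was 0.058. The share that passed was 47.9% over all tested genes and 58.3% at or above the lowest member level. TP73, the family member with overlapping targets, rose by 0.62 (FDR 2.30e-05), and CDKN2A, which encodes the MDM2 inhibitor ARF as well as p16, rose by 0.14 (FDR 0.00308). The acetyltransferase EP300 (-0.27), the checkpoint kinase CHEK1 (-0.24) and the p53 cofactor PPP1R13B (-0.19) were lower. ATM and CHEK2, the kinases that signal DNA breaks to p53, did not pass, at 0.08 (FDR 0.0908) and 0.10 (FDR 0.0738). The 7 calls of this list were 4 without OV3/SCR replicate 2 and 12 without OV3/COX1KD replicate 2.

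Among 30 further p53 target genes, 26 were tested, of which 7 rose and 9 fell, with a median log2 fold change of -0.071. The share that passed, 61.5%, was near the 58.3% of tested genes at or above the lowest member level. By direction, 26.9% of the list passed as higher and 34.6% as lower, against 32.8% and 25.5% at that level. Rises beyond 0.5 on the log2 scale were seen in 11.5% and falls in 19.2%, against 11.1% and 9.14%. FUCA1, a lysosomal fucosidase (0.88), TNFRSF10C, a decoy receptor for TRAIL (0.78), and SFN, the 14-3-3 sigma gene (0.70), rose most. ATF3, a stress-induced transcription factor, had 477, 473 and 473 counts in OV3/SCR and 126, 127 and 133 in OV3/COX1KD, a log2 fold change of -1.85. PMAIP1, which encodes the BH3-only protein NOXA (-0.83), and EPHA2, an ephrin receptor (-0.80), also fell. The BH3-only genes PMAIP1 and BBC3 thus had opposite signs. Of 15 cell cycle genes lowered through p53, p21 and the DREAM complex, 7 rose and 2 fell, with a median log2 fold change of 0.076. Their share of calls in both directions, 60.0%, was also near that background, but the directions were not. Of the 15, 46.7% passed as higher and 13.3% as lower, against 32.8% and 25.5% at that level. CDC25C (0.39), TOP2A (0.37) and BUB1 (0.28) were the highest of those that rose, and MYBL2 (-0.52) and MCM5 (-0.17) were the pair that fell.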

How the data were processed

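The 3 OV3/SCR and 3 OV3/COX1KD libraries were prepared with the Illumina TruSeq RNA kit and sequenced on an Illumina HiSeq instrument. The authors deposited 1 table of raw read counts per gene, and per the labels the reads were aligned to hg19 (GRCh37) with TopHat2 2.0 and counted with HTSeq. These names and the version are from the submitters' processing notes, and the annotation and the strand setting are not given in the sources used here. The table's older symbols PIDD, C12orf5, KIAA0247 and RFWD2 stand for PIDD1, TIGAR, SUSD6 and COP1.

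Counts were tested with edgeR 4.0.16 in R 4.3.3 (TMM scaling, filterByExpr, quasi-likelihood test, 17309 genes, Benjamini-Hochberg FDR under 0.01, two-sided) with condition as the single term. The steps were tested on simulated data. At a log2 change of 0.5, 55 of 68 genes with a log2 CPM of at least 1 were recovered. Below that level it was 0 of 32. At a log2 change of 1.5 it was 79 of 79 and 16 of 21. DESeq2 1.42.0 (Wald test) was an alternative, beside RLE and total count scaling, other filters, a replicate block and leaving out each library, 12 in all. The limit of 0.5 on the log2 scale is the study's limit for colouring genes. A count of 3 corresponds to 0.113 to 0.120 CPM, and this covers counting error only.

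All 31 members are named. Full values are given for members past the threshold with a log2 fold change beyond 0.5 and for MDM2, CDKN1A, BAX and GDF15. Of the related lists, ATM, CHEK2, CDKN2A and up to 3 genes in each direction are named, except 1 gene that is not reported here. The members and lists were chosen with earlier results of these data known. Positions and sequences are from GENCODE 44 mapped to GRCh37 (33556 of 34811 genes matched) and the GRCh37 genome. Starts are those of the canonical transcript, or of the principal transcript for FAS. Tables were handled in Python 3.11.15 with pandas 2.3.3.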

Additional observations from a re-analysis of the deposited data

How the results depend on the processing

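Of the 22 p53 pathway genes that passed, 16 kept their call under all 12 alternatives, and the others were BAX, FAS, TRIAP1, SESN2, TP53INP1 and TP53I3. DDB2 and SESN1 stayed without a call under all 12. Total count scaling turned the signs of PPM1D (-0.056) and XPC (-0.024), neither of which passed, and left 5 members higher beyond 0.5. DESeq2 called 4 members lower, against 7 with edgeR, and 12 higher. Over all genes it called 6763 of 19288, against 8293 of 17309 with edgeR. Leaving out 1 library gave 12 to 18 members higher, 4 to 7 lower (4 without OV3/SCR replicate 3), 10 to 11 higher and 4 to 5 lower beyond 0.5 on the log2 scale, and 4 to 12 calls among the p53 family, kinases and cofactors. Replicate numbers were not taken as pairing the samples: deviations of same-numbered libraries correlated at 0.0045 to 0.0424, and 1 of the 3 OV3/SCR libraries correlated best with its own number. A replicate block gave 14 members higher and 7 lower, and 30 of 31 members had the same call, with BAX the exception. Over all genes, the block called 8233 of 17309, and leaving out 1 library called 7124 to 8989. The cause of these changes was not tested. CDKN1A, at 26 to 84 counts, is the member whose precision is most limited by depth.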
